A study of Mus musculus with 9 samples.

Results

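The genes described here make, break down and hold in check the polyamines putrescine, spermidine and spermine in mouse osteosarcoma. They were the 10 genes of the deposited count table, out of 55367, whose symbols were Odc1, Amd1, Srm, Sms, Sat1, Smox, Paox, Oaz1, Oaz2 and Azin1. RNA-seq had been run on whole tumors of mice that carried Cre recombinase under the Col2.3 promoter, which is active in osteoblasts, together with 1 floxed Trp53 allele. The 4 p53-driven tumors carried these alleles alone (Col2.3-Cre Trp53 fl/+). The 5 Myc-knockin tumors carried them with a Lox-Stop-Lox c-MycT58A allele, so that Cre and the floxed Trp53 allele were common to both groups. T58A replaces a threonine whose phosphorylation marks the MYC protein for degradation. The ages of the animals are not in the labels, which also do not say whether each tumor came from a separate mouse, so the p-values measure the spread between these tumors.

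Polyamines are small, positively charged molecules that bind RNA and DNA and are needed for cell growth. Ornithine decarboxylase (Odc1) makes putrescine from ornithine, S-adenosylmethionine decarboxylase (Amd1) supplies the aminopropyl groups, spermidine synthase (Srm) adds one of these to putrescine, and spermine synthase (Sms) adds another to spermidine. Spermidine/spermine acetyltransferase (Sat1) starts the way back, polyamine oxidase (Paox) cleaves the acetylated products and spermine oxidase (Smox) turns spermine directly into spermidine. Antizymes (Oaz1, Oaz2) bind ornithine decarboxylase and send it to the proteasome, and antizyme inhibitor (Azin1) binds the antizymes in its place. Odc1 is a textbook target gene of MYC, and most of the pathway's control acts on translation and protein turnover, which an mRNA count does not measure.

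No member passed the threshold used for a call, an adjusted p under 0.05 with a fold change over 1.5 in the quasi-likelihood test of edgeR (p adjusted by Benjamini-Hochberg for the 15365 genes tested). Of all genes tested, the Myc-knockin group had 2.26% called higher and 3.00% called lower. All 4 synthesis genes had higher mean values in the Myc-knockin tumors, with log2 fold changes of 1.10 to 1.49 and 95% intervals that lay above 0, and Azin1 had a log2 fold change of -1.20. The breakdown genes were mixed, with Sat1 at -0.67, Smox at 0.06 and Paox at 1.14. At an unadjusted edgeR p under 0.05 there were 4 members higher (Odc1, Amd1, Srm and Sms) and 1 lower (Azin1), where 14.9% of all genes tested were higher and 11.8% lower. DESeq2 called 3 members higher (Odc1, Srm and Sms) and 1 lower (Azin1), against 10.1% and 7.30% of all genes, and limma-voom with quality weights called 0, against 4.32% higher and 6.51% lower. In limma-voom the log2 fold changes of Odc1, Amd1 and Srm were 0.56, 0.55 and 0.42, so the size of the synthesis-gene differences depends on the method, while that of Sms was 1.13.

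Levels are given as CPM, counts scaled to a common library size, with TMM, a factor that sets the bulk of genes equal between libraries. The tumors are named as the columns of the table, F187, F325, F331 and F368 for the p53-driven group and M351, M408, M9, M624 and M664 for the Myc-knockin group. The labels do not name the columns. Each was placed in its group by its initial letter, and for M351, M9 and M664 nothing but that letter gives the group. Myc itself was higher in all 5 M tumors (144.2 to 1045 CPM) than in all 4 F tumors (43.5 to 67.1 CPM), with a log2 fold change of 3.41 (SE 0.59, adjusted p = 0.0217 by edgeR). The Myc call was lost without F325, F331 or F368 (adjusted p of 0.0782 to 0.0909 by edgeR), with log2 fold changes of 3.33 to 3.54. In those fits 0% to 0.0124% of all genes tested were called higher. Trp53 overlapped, at 8.30 to 13.5 CPM against 3.19 to 37.7 CPM. Its lowest value, in M9, rested on 4 counts, where 4.955 were expected from background reads (measured over chemosensory receptor genes). The libraries held 2716322 to 17073285 counts, so that 3 counts, the least taken as detectable, stood for 0.114 to 2.39 CPM. In F187, M351, M408 and M9, 23.2% to 81.0% of counts fell on 11 gene models, chiefly Gm10800, that are known to lie over satellite repeats, against at most 0.0242% elsewhere. M624 and M664 were the deepest libraries and held 3.47 and 6.35 CPM of Rn7sk, a nuclear RNA that stood at 6545 CPM or more in the other 7. They also stood apart in red cell markers, which summed to 216.2 and 783.1 CPM against 3.56 to 31.7 CPM in the other 7, with the globin gene Hba-a1 at 0 in all of those. Osteoblast markers summed to 65480 to 141300 CPM in the p53-driven and 3610 to 41290 CPM in the Myc-knockin tumors, most of it from the collagen genes Col1a1 and Col1a2. Of these 10 markers, 2 were called lower, Bglap and Bglap2, which encode osteocalcin and were at 0 in M408 and, for Bglap2, also in M624. The parts that these differences play in the results were not tested, and in bulk tumors fewer cells of a type and less RNA per cell cannot be told apart.

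Several members have near-identical copies elsewhere in the genome, and the sequences show what a single short read can and cannot separate. Antizyme mRNAs are known for a programmed frameshift, in which the ribosome meets a stop codon (TGA) after the codon TCC and goes on in another reading frame when polyamines are abundant. The stretches of 60 bases around that site are printed from mm10, with TCCTGA in capitals. They lie in the coding exons of Oaz1 (chr10:80828265-80828324, plus strand) and Oaz2 (chr9:65686242-65686301, plus strand) and in the processed pseudogene Oaz1-ps (chr17:17345907-17345966, minus strand).
Oaz1: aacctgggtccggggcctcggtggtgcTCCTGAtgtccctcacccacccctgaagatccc
Oaz1-ps: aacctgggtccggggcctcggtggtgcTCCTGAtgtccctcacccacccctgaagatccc
Oaz2: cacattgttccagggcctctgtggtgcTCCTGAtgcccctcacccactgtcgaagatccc
Oaz1 and Oaz1-ps differed at 0 of the 60 bases, and Oaz2 differed from Oaz1 at 11 of them. Along its whole 685 bases Oaz1-ps differed from the Oaz1 transcript by 1 substitution and no gap. The pseudogene Sms-ps was identical to the Sms transcript over 1101 bases, of which a stretch of 60 coding bases is shown from chrX:157470049-157470108 (Sms) and chrX:62776577-62776636 (Sms-ps), both on the minus strand.
Sms: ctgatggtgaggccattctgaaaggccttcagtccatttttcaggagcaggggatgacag
Sms-ps: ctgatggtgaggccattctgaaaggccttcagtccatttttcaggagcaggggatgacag

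Of all windows of 76 bases in each member's longest coding transcript, the share also found in transcripts of another gene was 81.7% for Amd1, 53.4% for Oaz1, 30.1% for Odc1, 28.2% for Sms and 26.6% for Paox. It was 5.99% for Oaz2, 5.92% for Azin1, 2.58% for Sat1 and 0 for Srm and Smox. The first 5 are therefore uncertain as to which locus gave the reads. Per the study's methods the reads came in pairs, while these shares are for single windows. What the second read of a pair could separate was not examined. How reads that match several places were counted is not given in the sources used here.

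Odc1 (chr12:17544794-17551505, plus strand), which makes putrescine, stood at 52.9, 65.0, 37.5 and 59.3 CPM in F187, F325, F331 and F368. In the Myc-knockin tumors it stood at 49.2 in M351, 242.8 in M408, 63.7 in M9, 230.7 in M624 and 161.9 CPM in M664. As counted, M408, M624 and M664 were above every p53-driven tumor, while M351 and M9 lay within the p53-driven range. The means were 53.7 ± 11.8 (SD, n = 4) and 149.7 ± 90.7 (SD, n = 5) CPM, a 2.80-fold difference (log2 1.49, SE 0.48, 95% interval 0.43 to 2.55, adjusted p = 0.0849 by edgeR; exact permutation p = 0.127, two-sided). The smallest p this permutation of tumors can give is 0.0159. M351 and M9 also had the 2 lowest Myc levels of their group, 269.6 and 144.2 CPM, and the 2 largest satellite shares, 67.9% and 81.0%, and neither link was tested. Odc1 had a log2 fold change of 1.24 when M624 and M664 were left out (adjusted p = 0.183), and without M9 it was 1.68 and passed the threshold (adjusted p = 0.0437). With the reads on its near-identical copies added, a step chosen after the data were seen, Odc1 in M9 was 92.4 CPM. That lay above the p53-driven range, then 50.4 to 87.7 CPM, while M351 at 80.6 CPM stayed inside it. Background reads, measured over chemosensory receptor genes, were not subtracted from these sums. In M9 they were expected to give 4.17 of the 80 Odc1 counts and 1.34 to 1.7 counts on each copy. The place of M9 above that range is therefore uncertain. The log2 fold change with copies added was 1.685 (adjusted p = 0.0641 by edgeR).

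Amd1 (chr10:40287458-40302186, minus strand) divided the Myc-knockin tumors as Odc1 did. It stood at 16.6, 14.2, 18.6 and 17.4 CPM in the p53-driven tumors, in the order used for Odc1. In the Myc-knockin tumors it stood at 12.3 in M351, 40.8 in M408, 18.3 in M9, 46.1 in M624 and 58.0 CPM in M664. As counted, the same 3 tumors that were high for Odc1 exceeded the p53-driven range, M351 was the lowest of all 9 and M9 lay inside the range. Amd1 had a log2 fold change of 1.10 (SE 0.42, interval 0.17 to 2.03, adjusted p = 0.129 by edgeR; exact permutation p = 0.19), and it was 0.63 without M624 and M664. With the reads on its near-identical copies added, M9 at 22.3 CPM was above the p53-driven range, then 17.3 to 21.7 CPM. M351 at 19.1 CPM was then inside that range. Background was not subtracted from these sums. It was expected to give 4.34 of the 23 Amd1 counts in M9 and 3.93 of the 20 in M351. The places of M9 and M351 against that range are therefore uncertain. Amd1 with copies added had a log2 fold change of 1.13 (adjusted p = 0.0985 by edgeR). Its paralog Amd2, which shares 79.3% of the windows, stood at 0.973 to 1.30 CPM in the p53-driven and 2.39 to 5.70 CPM in the Myc-knockin tumors (log2 1.88, adjusted p = 0.0612). These did not overlap as counted, but F187 and M9 held 3 counts each, and in M9 the 3.94 counts expected from background reads (measured over chemosensory receptor genes) were more than that.

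Srm (chr4:148591503-148594993, plus strand), spermidine synthase and the member free of shared windows with the clearest split, stood at 62.4, 72.0, 31.6 and 61.3 CPM in F187, F325, F331 and F368. In M351, M408 and M9 it stood at 74.5, 69.0 and 51.8 CPM, and in M624 and M664 at 278.1 and 309.5 CPM. M624 and M664 stood far above the p53-driven tumors, M351 was just above F325, and M408, the highest for Odc1, lay inside the p53-driven range. The fitted log2 difference was 1.47 (SE 0.58, interval 0.21 to 2.74, adjusted p = 0.133 by edgeR; exact permutation p = 0.175). Without M624 and M664 it was 0.26 (adjusted p = 0.613), so the difference rested on M624 and M664. Their own distance from the other Myc-knockin tumors in Srm cannot be told apart from their distance in Rn7sk, globin reads and depth.

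Sms (chrX:157443855-157492287, minus strand), spermine synthase, stood at 9.09, 12.2, 16.6 and 5.59 CPM in the p53-driven tumors. In M351, M408, M9, M624 and M664 it stood at 16.0, 32.6, 17.5, 37.0 and 24.6 CPM. All Myc-knockin tumors except M351 were above the highest p53-driven tumor, F331. On the log2 scale the difference was 1.24 (SE 0.39, interval 0.38 to 2.10, adjusted p = 0.0798 by edgeR; exact permutation p = 0.0317), and 1.11 without M624 and M664 (adjusted p = 0.142). Sms-ps received 0.182 (M9) to 1.13 (F325) reads for each read on Sms. In M9 and M351 the values rest on 22 and 26 counts, of which 7.36 and 6.67 were to be expected from the even background of reads over those receptor genes, which bone does not normally use. With that background subtracted, M9 and M351 stood at 11.7 and 11.9 CPM of Sms, inside the p53-driven range. With the reads on Sms-ps added instead, M9 stood at 20.7 CPM, inside the p53-driven range, then 11.3 to 31.92 CPM. M351 at 32.01 CPM was just above it, with the background not subtracted, so its place above that range is uncertain. The log2 fold change of that sum was 1.07 (adjusted p = 0.128 by edgeR).

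**Figure D1:**
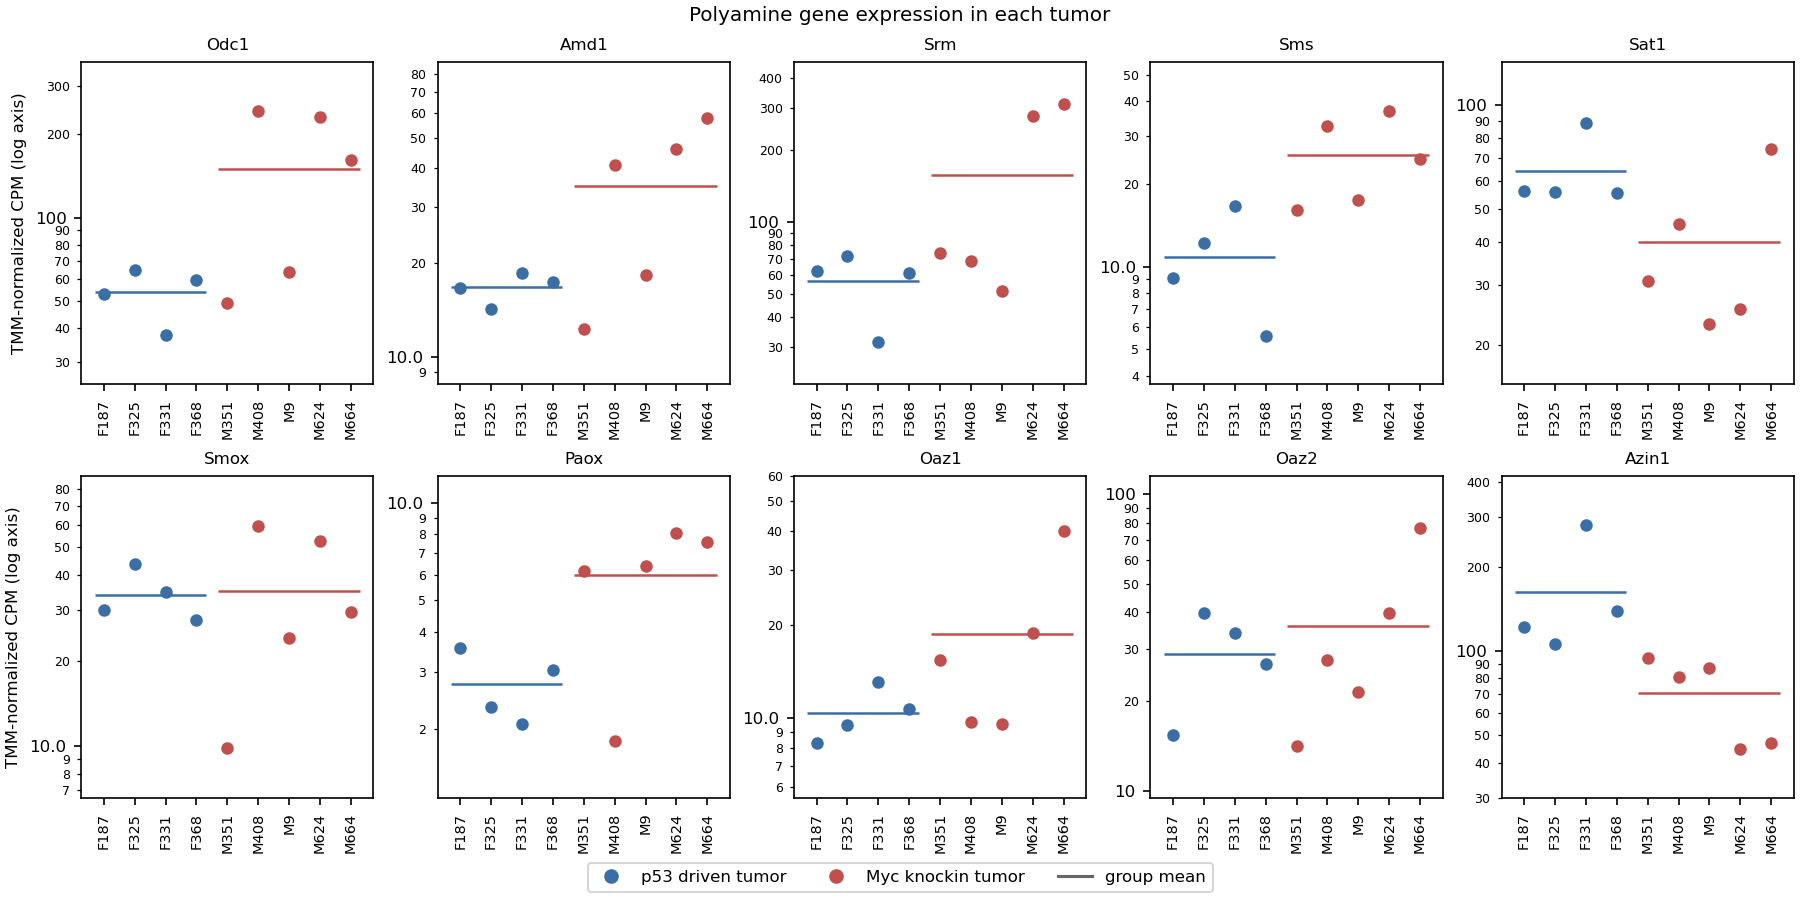
TMM-normalized CPM (log axis, own scale in each panel) of the 10 polyamine genes in each tumor, blue for the 4 p53-driven and red for the 5 Myc-knockin tumors, with a line at each group's mean. Odc1 and Amd1 are high in M408, M624 and M664, Srm in M624 and M664 only, and Azin1 is lower in all 5 Myc-knockin tumors than in all 4 p53-driven tumors.

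Among the breakdown genes, Sat1 (chrX:155213132-155216449, minus strand) had the lower mean in the Myc-knockin tumors. It stood at 56.1, 56.0, 88.8 and 55.6 CPM in F187, F325, F331 and F368, and at 30.8 in M351, 45.1 in M408, 23.1 in M9, 25.5 in M624 and 74.7 CPM in M664. M664 alone reached into the p53-driven range and the other 4 Myc-knockin tumors lay below it. The log2 fold change of -0.67 did not pass (SE 0.37, interval -1.48 to 0.13, adjusted p = 0.264 by edgeR; exact permutation p = 0.111). It was -1.01 without M664 (adjusted p = 0.0698) and -0.39 without the 4 satellite-rich libraries (adjusted p = 0.591). The 8 leukocyte markers summed to 489.6 to 945.4 CPM in the p53-driven and 157.7 to 402.1 CPM in the Myc-knockin tumors. F331 was highest in its group and M664 highest in the other, as for Sat1. M408 came close to M664 in this sum (395.4 CPM) but not in Sat1. Of the 8, 1 was called lower, while Coro1a (log2 1.29) and Arhgdib (0.02) had fold changes above 0 and were not called. The 12 macrophage markers summed to 935.3 to 1630 CPM and 382.4 to 1231 CPM, with 3 of 12 called lower and again F331 and M664 at the top of their groups. Among them Cd14 (log2 1.13), C1qb (0.56), C1qa (0.17) and Aif1 (0.06) had fold changes above 0 and were not called. No marker of either list was at 0 in any library, and their part in the Sat1 values was not tested. The genes whose log2 levels followed Sat1 most closely over the 9 tumors, out of 10265 compared, were Mrip-ps (Pearson r = 0.978), Vim (0.964), Aagab (0.962), Irak1 (0.958) and Laptm5 (0.946). Laptm5 encodes a lysosomal membrane protein of blood cells and Vim the filament protein vimentin. These correlations pool both groups and all depths and are descriptions only.

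Smox (chr2:131491496-131525922, plus strand), spermine oxidase, stood at 30.0, 43.6, 34.9 and 27.7 CPM in the p53-driven tumors and at 9.85 in M351, 59.3 in M408, 23.9 in M9, 52.5 in M624 and 29.6 CPM in M664. The Myc-knockin tumors lay on both sides of the p53-driven range, and the log2 fold change was 0.06 with an interval of -0.90 to 1.02. Its sign turned to -0.45 in limma-voom.

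Paox (chr7:140115799-140137224, plus strand) was the scarcest member, at 3.56, 2.33, 2.08 and 3.04 CPM in the p53-driven tumors. In the Myc-knockin tumors it stood at 6.16 in M351, 1.83 in M408, 6.37 in M9, 8.08 in M624 and 7.60 CPM in M664. M408 was the lowest of all 9 and the other 4 Myc-knockin tumors were above every p53-driven tumor. Paox had a log2 fold change of 1.14 (SE 0.53, interval -0.01 to 2.30, adjusted p = 0.192 by edgeR; exact permutation p = 0.0794). M351 and M9 gave only 10 and 8 counts, of which 5.45 and 6.01 were the expected background, and with it subtracted they stood at 2.80 and 1.59 CPM, no longer above the p53-driven tumors. Its exons also overlap those of Echs1 on the other strand, and the strand setting of the counting is not given in the sources used here.

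Oaz1 (chr10:80826656-80829290, plus strand) was recorded at 8.30, 9.49, 13.1 and 10.7 CPM in the p53-driven tumors and at 15.4, 9.71, 9.56, 18.8 and 40.1 CPM in M351, M408, M9, M624 and M664. M408 and M9 lay inside the p53-driven range and the other 3 above it, M664 furthest. Oaz1 had a log2 fold change of 0.87 (SE 0.44, interval -0.11 to 1.84, adjusted p = 0.236 by edgeR), 0.39 without M664 and 0.19 without M624 and M664. The pseudogene Oaz1-ps held more reads than Oaz1 in all 9 tumors, by 1.36 (M351) to 4.63 times (M624), and 7913 against 1893 in all. Oaz1-ps stood at 25.6 to 49.0 CPM in the p53-driven tumors, at 20.9, 23.3 and 18.3 CPM in M351, M408 and M9, and at 86.8 and 181.9 CPM in M624 and M664. In Oaz1-ps, M351, M408 and M9 were thus below every p53-driven tumor and M624 and M664 above. With the 2 loci summed, a step chosen after the data were seen, the log2 fold change was 0.95 (adjusted p = 0.334), and without M624 and M664 the sum turned to -0.40.

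Oaz2 (chr9:65668001-65690300, plus strand), at 15.4, 39.9, 34.0 and 26.8 CPM in the p53-driven tumors, stood at 14.2 in M351, 27.7 in M408, 21.5 in M9, 39.9 in M624 and 76.9 CPM in M664. M664 alone was well above the p53-driven tumors, M624 was level with the highest of them, and the shallow libraries F187 and M351 were the lowest of their groups. Oaz2 had a log2 fold change of 0.33 (interval -0.70 to 1.36, adjusted p = 0.691 by edgeR) and it became -0.38 without M624 and M664.

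Azin1 (chr15:38487427-38519266, minus strand), the antizyme inhibitor, was the single member whose groups did not overlap. It stood at 122.1, 105.9, 280.1 and 139.2 CPM in F187, F325, F331 and F368, and at 94.2 in M351, 81.0 in M408, 86.8 in M9, 44.9 in M624 and 46.9 CPM in M664. Every Myc-knockin tumor was below every p53-driven tumor, with M351 and F325 closest to each other and F331 standing well above the rest. Azin1 had a log2 fold change of -1.20 (2.30-fold lower, SE 0.37, interval -2.01 to -0.40, adjusted p = 0.0731 by edgeR; exact permutation p = 0.0159, the smallest possible). Of all genes tested, 7.54% were lower without overlap and 5.41% higher, and 1 of 10 members is close to that background. It was -0.84 without M624 and M664 (adjusted p = 0.193) and -0.80 to -1.36 as each tumor was left out in turn. The osteoclast markers, 6 of 8 of them called lower, were also highest in F331 (14150 CPM, against 2716 to 7242 CPM in the other p53-driven and 124.3 to 2570 CPM in the Myc-knockin tumors), and Dcstamp was at 0 in M408. Within the Myc-knockin group, M664 was highest for these markers (2570 CPM) with 46.9 CPM of Azin1. M9 was lowest for them (124.3 CPM) with 86.8 CPM of Azin1. The part of these markers in the Azin1 values was not tested.

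**Figure D2:**
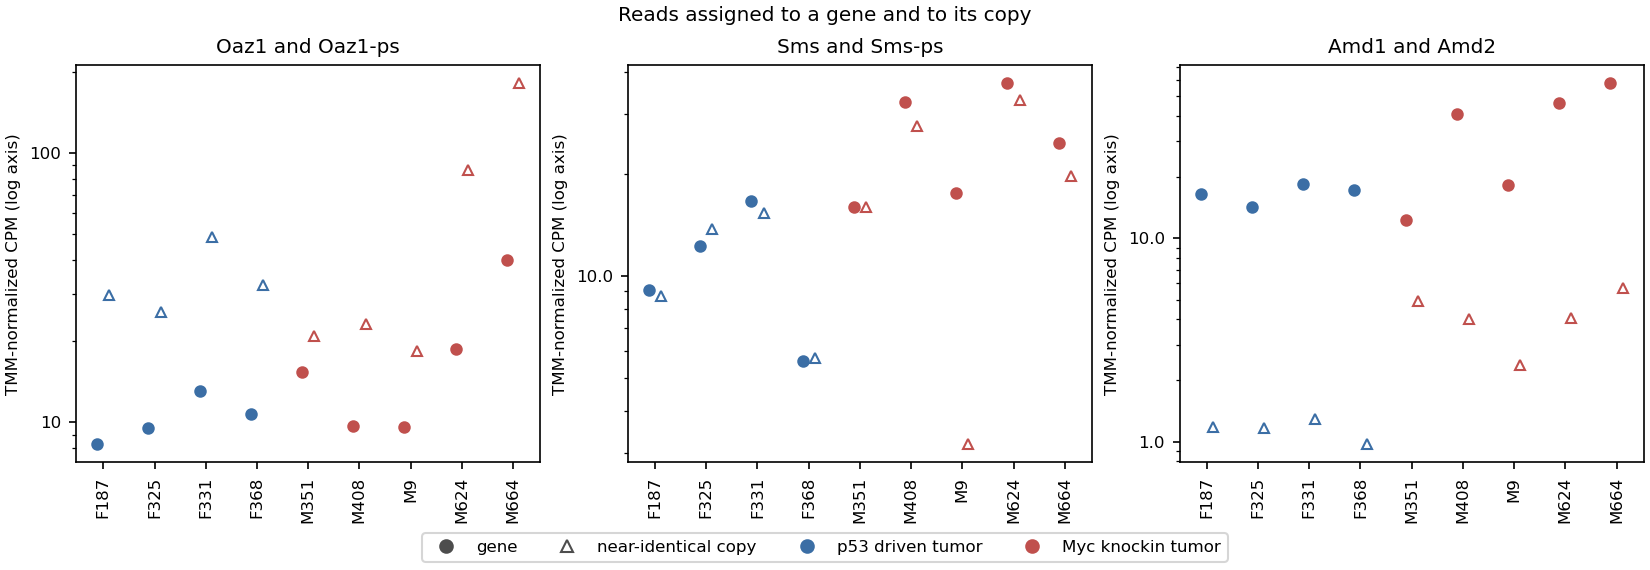
TMM-normalized CPM (log axis) of Oaz1, Sms and Amd1 (filled circles) beside Oaz1-ps, Sms-ps and Amd2 (open triangles) in each tumor, blue for p53-driven and red for Myc-knockin. Oaz1-ps is above Oaz1 in all 9 tumors, Sms-ps runs close to Sms except in M9 (0.182 reads for each read on Sms), and Amd2 stays below Amd1.

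Per kilobase of exon, the scale on which genes can be set beside each other, the p53-driven means ran from Srm (35.5 ± 10.9 CPM per kb, SD, n = 4) through Azin1 (25.9 ± 12.8), Sat1 (23.1 ± 5.94) and Odc1 (15.8 ± 3.48) to Oaz2 (9.70 ± 3.53) and Smox (8.75 ± 1.81). Amd1 (4.72 ± 0.520), Oaz1 (4.06 ± 0.796), Sms (1.81 ± 0.779) and Paox (0.561 ± 0.137) came last. Ranges of neighbours in this order overlapped except between Sat1 and Odc1, Smox and Amd1, Oaz1 and Sms, and Sms and Paox. In the Myc-knockin tumors Srm (97.9 ± 78.8) and Odc1 (44.0 ± 26.6) led, and Sat1 (14.4 ± 7.67), Oaz2 (12.05 ± 8.26) and Azin1 (11.3 ± 3.71) followed with overlapping spread. The exon lengths include retained introns of minor transcripts, and for Oaz1 and Sms the reads on the copies are not included.

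Ratios between members inside 1 library do not depend on the scaling between libraries. Odc1 over Sat1, the entry step against the first step of breakdown, had a log2 ratio of CPM per kb of -0.38, -0.08, -1.54 and -0.20 in F187, F325, F331 and F368 and of 0.38, 2.13, 1.17, 2.88 and 0.82 in M351, M408, M9, M624 and M664. Every Myc-knockin tumor was above every p53-driven tumor. That 0 lay between the groups depends on the exon lengths used, 3405 bases for Odc1 and 2774 for Sat1. Their longest coding transcripts were 2208 and 1162 bases. Srm over Sat1 was -0.70 to 1.16 in the p53-driven and 1.41 to 4.24 in the Myc-knockin tumors, again without overlap. Odc1 over Oaz1 (1.11 to 2.36 against 1.27 to 4.23) and Srm over Sms (2.84 to 5.36 against 2.99 to 5.56) overlapped. Oaz1 over Azin1 was -3.13 to -2.19 and -1.89 to 1.07, without the reads on Oaz1-ps. With those reads added to Oaz1, the groups overlapped in this ratio. M9 then held 27.9 CPM of Oaz1 beside 86.8 CPM of Azin1, a smaller share than in F325, with 35.1 CPM beside 105.9 CPM. Of the 10 ratios computed, 3 separated the groups as counted, without reads on copies. The 7 others overlapped, among them Odc1 over Azin1, Odc1 over Oaz2, Srm over Odc1, Oaz2 over Azin1 and Oaz2 over Oaz1. The ratios are given as descriptions with no test, and the ratios that share Sat1 are not independent of each other.

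**Figure D3:**
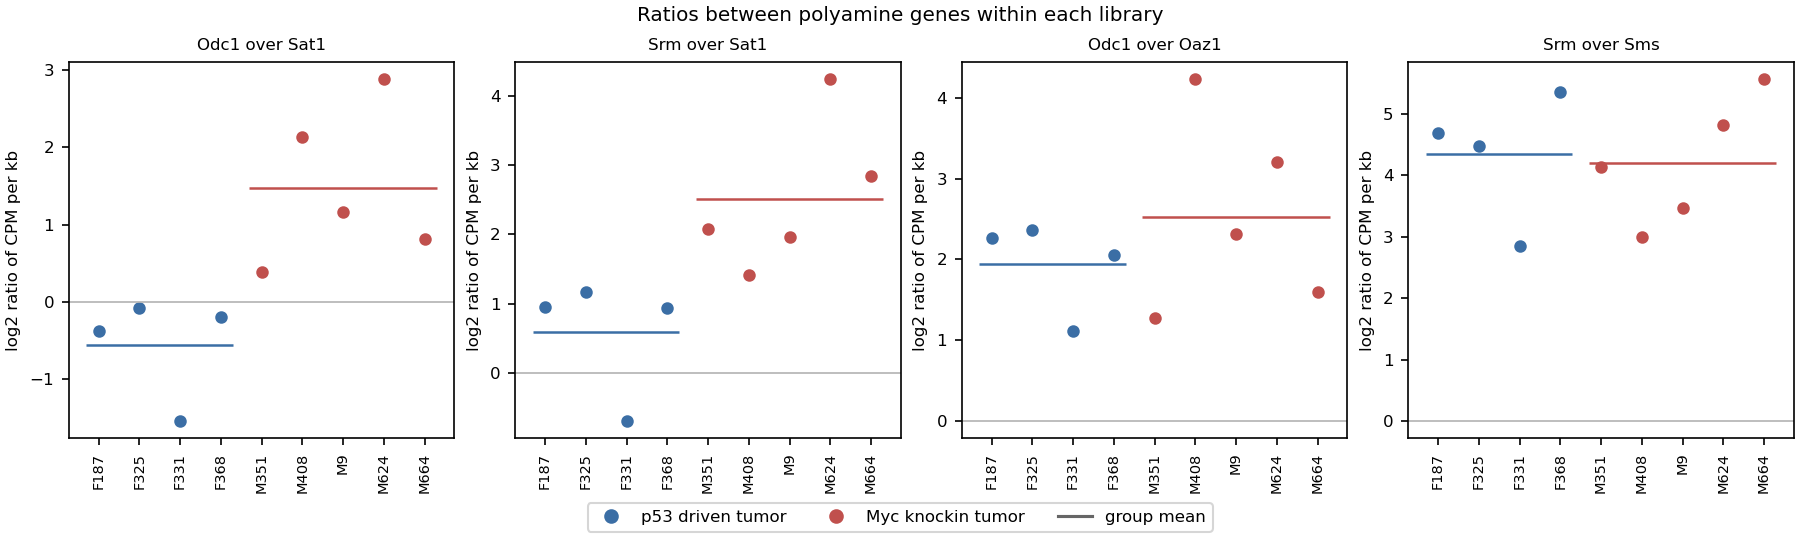
Log2 ratio of CPM per kb between pairs of polyamine genes in each tumor, with a line at each group's mean (blue, 4 p53-driven; red, 5 Myc-knockin tumors). Odc1 over Sat1 and Srm over Sat1 do not overlap between the groups, while Odc1 over Oaz1 and Srm over Sms do.

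The genes that supply and use the pathway were taken from a list of 37, of which 30 were tested. edgeR called 2 of the 30 higher and 0 lower, against the 2.26% and 3.00% of all genes given above. At an unadjusted edgeR p under 0.05 there were 9 higher and 2 lower, against 14.9% and 11.8% of all genes tested. DESeq2 called 6 higher and 0 lower, against 10.1% and 7.30% of all genes. Limma-voom called 5 higher and 1 lower, against 4.32% and 6.51%, the last being Gpc1, a cell-surface proteoglycan. The 2 called by edgeR were Dhps and Mri1. Dhps uses spermidine to build the amino acid hypusine into the translation factor eIF5A. Mri1 encodes an enzyme of the route that recycles to methionine the methylthioadenosine left by spermidine and spermine synthesis.

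Dhps stood at 3.95, 3.58, 5.80 and 3.53 CPM in F187, F325, F331 and F368 and at 10.5, 12.1, 11.95, 22.1 and 30.6 CPM in M351, M408, M9, M624 and M664. All 5 Myc-knockin tumors were above all 4 p53-driven tumors, and M624 and M664 were highest. Dhps rose by 2.07 on the log2 scale (4.19-fold, SE 0.42, adjusted p = 0.0279 by edgeR) and was still called without M624 and M664 (1.5, adjusted p = 0.0455), while leaving out any 1 p53-driven tumor took the adjusted p to between 0.0628 (F187) and 0.122 (F368). In the fits without 1 p53-driven tumor, 0% to 0.806% of all genes tested were called higher. Mri1 stood at 4.98 to 7.51 CPM in the p53-driven tumors and at 19.7, 10.4, 8.76, 52.6 and 35.8 CPM in M351, M408, M9, M624 and M664, again without overlap as counted. With the expected background of 4.01 of its 11 counts subtracted, M9 stood at 5.57 CPM of Mri1, inside the p53-driven range, while Dhps, with M9 at 9.68 CPM, still did not overlap. Mri1 rose by 2.09 (4.26-fold, SE 0.53, adjusted p = 0.047 by edgeR) and was not called without M624 and M664 (1.14, adjusted p = 0.0981), nor in 7 of the 9 fits that left out 1 tumor. Of the 30 genes, 4 were higher without overlap as counted (Dhps, Mri1, Slc7a2 and Amd2) and 0 lower, beside 5.41% and 7.54% of all genes.

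Eif5a, which encodes the protein that Dhps modifies, stood at 184.1 to 217.9 CPM in the p53-driven tumors and at 317.6, 493.9, 196.0, 1205 and 1139 CPM in M351, M408, M9, M624 and M664. M9 fell inside the p53-driven range and the other 4 lay above it (log2 1.73, SE 0.54, adjusted p = 0.0774 by edgeR). Dohh, which completes hypusine, had a log2 fold change of 1.70 (adjusted p = 0.16) and the paralog Eif5a2 one of -0.56 (adjusted p = 0.296). Of the 4 genes of this group, 1 was thus called.

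For the supply of ornithine and arginine, 0 of 6 tested genes were called by edgeR. Slc7a2, an arginine transporter, stood at 13.1 to 43.0 CPM in the p53-driven and 50.9 to 129.2 CPM in the Myc-knockin tumors (log2 1.57, SE 0.42, adjusted p = 0.0542). Arg1, the arginase that releases ornithine, stood at 0.243 to 2.37 CPM in the p53-driven tumors and at 19.1 in M351, 64.7 in M408, 2.39 in M9, 0.610 in M624 and 3.41 CPM in M664. The Arg1 mean rested on M408 and M351 (log2 4.71, SE 1.39, adjusted p = 0.068), and the p53-driven values came from 2 to 6 counts. Neither of the 2 tested genes for S-adenosylmethionine supply, Mat2a and Mat2b, was called, nor were the other 4 genes of methylthioadenosine salvage. Transport had 0 of 10 called, with log2 fold changes of -1.36 (Gpc1) to 2.29 (Slc47a1). Genes of the list with too few counts to be tested included Arg2, Mat1a, Slc22a2, Oaz3, Satl1 and Agmat.

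**Figure D4:**
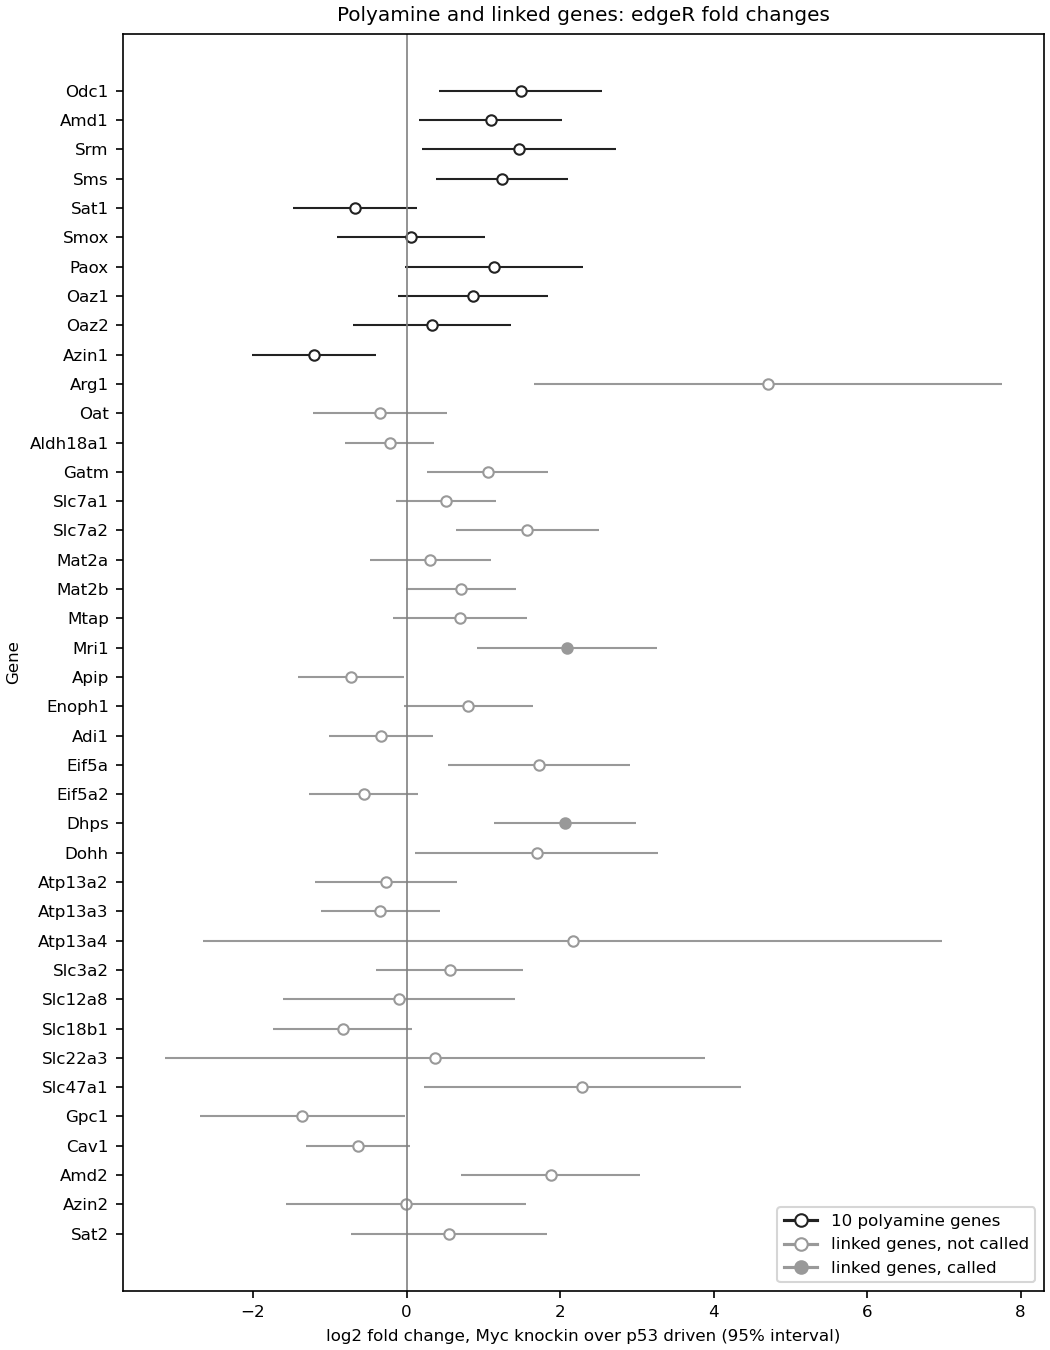
edgeR log2 fold change (Myc-knockin over p53-driven) with its 95% interval for the 10 polyamine genes (black) and the 30 tested linked genes (grey), with filled points for called genes. Only Mri1 and Dhps are filled, and the intervals of Odc1, Amd1, Srm and Sms lie above 0 and that of Azin1 below 0 without passing the adjusted threshold.

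As a summary of direction, the median log2 fold change was 1.36 over the 4 synthesis genes, 0.98 over the 10 members, 0.53 over the 30 linked genes and 0.14 over all genes tested. With F187, M351, M408 and M9 left out, 5 members were called higher (Odc1, Amd1, Srm, Paox and Oaz1) and 1 lower (Azin1), beside 15.7% and 12.1% of all genes. In that fit M624 and M664 were the only Myc-knockin tumors, set against F325, F331 and F368. Among the genes whose log2 levels followed Odc1 most closely over the 9 tumors, of 10265 compared, were Mtrr (Pearson r = 0.967), Setd5 (0.965), Gm10167 (0.948) and Psmd7 (0.936), again pooled over both groups and given as a description.

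**Figure D5:**
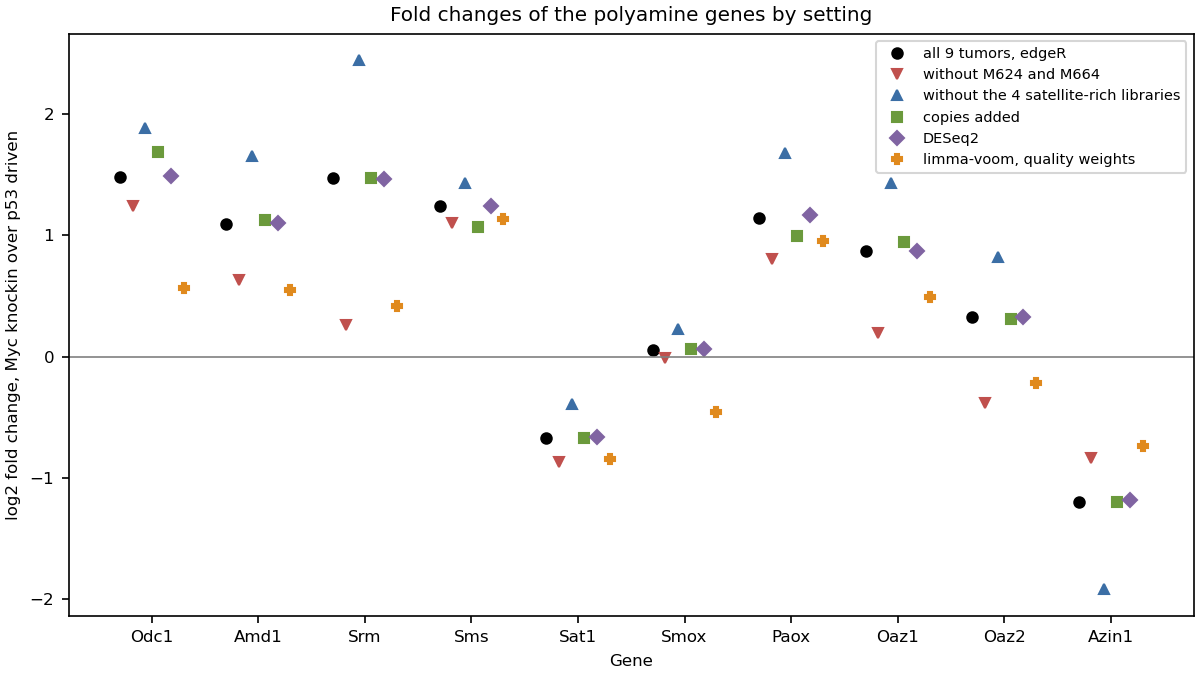
Log2 fold change of each polyamine gene (Myc-knockin over p53-driven) under 6 settings, the main edgeR fit on all 9 tumors in black. Srm moves from 1.47 to 0.26 without M624 and M664 and to 2.45 without the 4 satellite-rich libraries, Sat1 and Azin1 stay below 0 in all 6, and Smox and Oaz2 cross 0.

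MYC with its partner MAX is known to bind the E-box CACGTG. The RefSeq promoter table (GRCm38.p6, 250 bases before to 50 after each start) listed 8 of the 10 members. Among these CACGTG was found in Sms, in 1 of its 2 windows, with the first base 196 bases before the start, and its 30 bases at chrX:157492466-157492495 on the minus strand are printed with the motif in capitals.
Sms promoter: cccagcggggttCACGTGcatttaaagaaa
The motif reads the same on both strands, and 7.17% of the 32544 distinct windows of the table held it. In the other windows listed, Odc1 included, these letters were not present between those bounds.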

How the data were processed

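Per the labels and the study's methods, RNA from whole tumors was enriched for mRNA and sequenced from a stranded kit, and the authors used Trim Galore, STAR and featureCounts on mm10 to make the deposited table of raw counts per gene. The versions of STAR and featureCounts, the strand setting and the handling of reads with several matches are not given in the sources used here. Counts were tested as deposited in R 4.3.3 with edgeR 4.0.16 (filterByExpr, minimum count 10, TMM, quasi-likelihood, Benjamini-Hochberg adjustment), called at an adjusted p under 0.05 and fold over 1.5. DESeq2 1.42.0 and limma 3.58.1 were alternatives, and the fits were tested on simulated data. Single genes were also compared by an exact two-sided permutation over the 126 arrangements of the tumors. Lengths and positions come from GENCODE vM21 (mm10), and 55111 of 55367 identifiers matched. Background was the counts per kb over 2015 chemosensory receptor genes. Satellite genes were those with at least 1000 counts in all and a mean level over 500-fold higher in F187, M351, M408 and M9 than in the other tumors. Log2 levels used a prior count of 2. Linked genes were named where called or by role. The members, the lists, the satellite genes and the libraries left out in alternatives were chosen with earlier results of these data known. Some genes that the naming rules selected are not reported here.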

Additional observations from a re-analysis of the deposited data

Results flagged for a closer look

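Values of each member and of Myc, Mri1 and Dhps were screened within each group for a tumor whose gap to its nearest neighbour took most of the group's range, and 2 of 26 groups were flagged, where chance flags about 1 in 20. Sat1 in F331 stood at 88.8 CPM while F187, F325 and F368 lay between 55.6 and 56.1 CPM, a gap of 0.98 of the range. Paox in M408 stood at 1.83 CPM, on 10 counts, while M351, M9, M624 and M664 lay between 6.16 and 8.08 CPM, a gap of 0.812 of the range. The cause of neither was tested.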

How the results depend on the processing

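The members called higher were 0 by edgeR and became 2 at an adjusted p under 0.1 (Odc1, Sms), 2 with at least 10 counts in every tumor (Odc1, Sms; Paox not tested), 3 by DESeq2, 1 with the background subtracted (Odc1), 5 without the 4 satellite-rich libraries, and 0 to 1 as each tumor was left out (1, Odc1, without M9). The members called lower, also 0, became 1 (Azin1) at an adjusted p under 0.1, by DESeq2 and without those libraries. The shares of all genes called higher in these fits were 7.82% at an adjusted p under 0.1, 8.46% with at least 10 counts in every tumor, 4.29% with the background subtracted and 6.03% without M9, and 6.81% were lower at an adjusted p under 0.1. The linked genes called higher were 2 and became 7 at an adjusted p under 0.1, 0 on library size alone, 1 with all genes of at least 1 count (Arg1), 4 with at least 10 counts in every tumor, 6 by DESeq2, 5 by limma-voom, 1 without satellite genes, 4 with the background subtracted, 8 without the 4 libraries, and 0 to 6 as each tumor was left out: 0 without F187, F325, F331 or F368, 1 (Dhps) without M351 or M664, and 6 without M9. Limma-voom called 1 linked gene lower. Of all genes, 0.325% were called higher on library size alone, 0.457% with all genes of at least 1 count and 1.56% without satellite genes. Without F187, F325, F331 and F368 the shares of all genes called higher were 0.806%, 0.0124%, 0% and 0%. Without M351 and M664 they were 1.17% and 1.9%. The log2 fold change of Smox turned to -0.45 in limma-voom, -0.013 without M624 and M664 (-0.012 with copies added), and ran from -0.17 (without M408) to 0.29 as each tumor was left out, below 0 also without F187, F368 or M624. Oaz2 turned to -0.22 in limma-voom, -0.38 without M624 and M664 (-0.39 with copies added) and ran from -0.14 (without M664) to 0.53 as each tumor was left out. Oaz1 turned to -0.40 with copies added and without M624 and M664. The signs of the other 7 members held in every setting run, Odc1 between 0.56 and 1.89 and Azin1 between -0.74 and -1.92. Adding copies, alone and without M624 and M664, was chosen after seeing the data. Over all genes, 348 higher and 461 lower became 1549 and 1121 by DESeq2, 50 and 86 on library size alone, and 2594 and 2001 without the 4 libraries. Library size alone moved the median log2 fold change of all genes from 0.14 to 0.03. The causes of these changes were not tested. No paired analysis was possible because the columns carry no replicate numbers. The numbers in the labels count the tumors within each group. The sources used here describe no pairs of tumors between the groups, which differ in genotype. Depth limits Paox and 10 of the 30 tested linked genes, Dhps, Amd2 and Arg1 among them, which had 10 counts or fewer in 1 or more libraries.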
